A study of Caenorhabditis elegans with 2 samples.

Results

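The genes described here build and police the machinery that separates chromosomes: the kinetochore, the spindle checkpoint, the chromosomal passenger complex, cohesin, condensin and a few of their partners. Members were taken by symbol from a list of 41 names. The deposited table of 19487 genes with introns holds 40 of them, and smc-1 has no row under that symbol. Each was measured in mixed-stage embryos of Caenorhabditis elegans strain BW1943, which is gad-1(ct226) dpy-11(e224) V, collected by bleaching from worms at 16 °C or at 25 °C. One stranded mRNA library was made per temperature, so there is 1 library a group and no replicates, and an interval or a test below compares the reads of these 2 libraries and not the temperatures. Both libraries carry the gad-1 and the dpy-11 allele, so an effect of temperature and an effect of the mutations cannot be told apart. The series title places GAD-1 with the spliceosome, the machine that removes introns, and the question for each gene is whether more of its reads lie in introns at 25 °C and whether its exon reads differ.

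A kinetochore is the protein plate on each sister chromatid that catches spindle microtubules. In C. elegans it runs along the whole chromosome, because the chromosomes are holocentric: the CENP-A histone marks the site, CENP-C and KNL-2 read or renew that mark, and the KNL-1, MIS-12 and NDC-80 complexes, together called the KMN network, bind the microtubules. Checkpoint proteins gather at unattached kinetochores and delay anaphase, cohesin rings hold sisters together until then, and condensin compacts the chromatids. Early embryonic cells divide rapidly, largely on mRNA and protein supplied by the mother.

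Gene reads numbered 22016818 at 16 °C and 18175617 at 25 °C. Members took 0.764% of the reads at 16 °C and 1.09% at 25 °C. Every member was well covered in exons, with at least 2360 exon reads over both libraries, whereas combined intron reads ran from 14 in czw-1 to 530 in smc-3. Because coverage decides how many genes a test can call, members are read below against all tested genes and also against the 4530 genes with 2000 or more combined exon reads, called well-covered genes here, a minimum chosen after seeing the data. Of the cell type markers, those of intestine and pharynx moved most between the libraries. Summed exon reads of 9 of 10 listed intestine markers found in the table were 806 CPM (counts scaled to the library total) at 16 °C and 95.6 at 25 °C, those of 7 of 8 pharynx markers 596 and 45.2, and those of 12 maternal germline genes 1455 and 1371. The sums were 3088 and 2472 CPM for 8 body wall muscle genes, 2715 and 3564 for 8 epidermis genes, and 641 and 568 for 8 neuron genes. All 9 intestine and 7 pharynx markers had at least 2-fold fewer exon reads at 25 °C, as did 3 of 8 body wall muscle, 0 of 8 epidermis, 2 of 8 neuron and 1 of 12 germline genes. The share was 33.6% over all genes that reached 10 exon reads in 1 or both libraries, and 8.94% among well-covered genes. Of the members, 15 overlap another annotated gene and their reads are uncertain: hcp-3, knl-2, knl-3, mis-12, kbp-1, kbp-2, ndc-80, hcp-1, mdf-2, san-1, air-1, pqn-85, capg-2, kle-2 and hcp-6. Fewer cells of a type and less RNA per cell cannot be told apart in whole embryos, and the part of this in the values below was not tested.

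Introns of these genes held more of the reads at 25 °C, by about as much as in a typical gene, with 4 members standing close to no change. Intron reads summed over members were 1695 at 16 °C and 3925 at 25 °C, or 1.01% (exact 95% binomial interval 0.960 to 1.06) and 1.99% (1.93 to 2.05) of their reads. The intron share of the whole libraries was higher, at 1.43% and 2.47%. The intron-to-exon ratio, intron reads over exon reads of a gene, rose in 28 of 40 members and fell in 0 by Fisher's exact test of the 4 counts, Benjamini-Hochberg adjusted at 0.05 over all 14972 genes with at least 10 combined reads. The other 12 were not called. Among all tested genes 28.1% rose and 0.614% fell, and among the well-covered genes 57.6% rose. The members' median log2 ratio was 1.06, a 2.09-fold rise, and that of all tested genes was also 1.06. All 40 members lay above 0, against 12033 of the 14972 tested genes and 4109 of the 4530 well-covered genes. In the authors' deposited table, whose p-values come with a stricter adjustment, 14 members passed an adjusted p of 0.01, as did 5.57% of its 19487 genes in either direction and 19.9% of the well-covered genes.

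**Figure D1:**
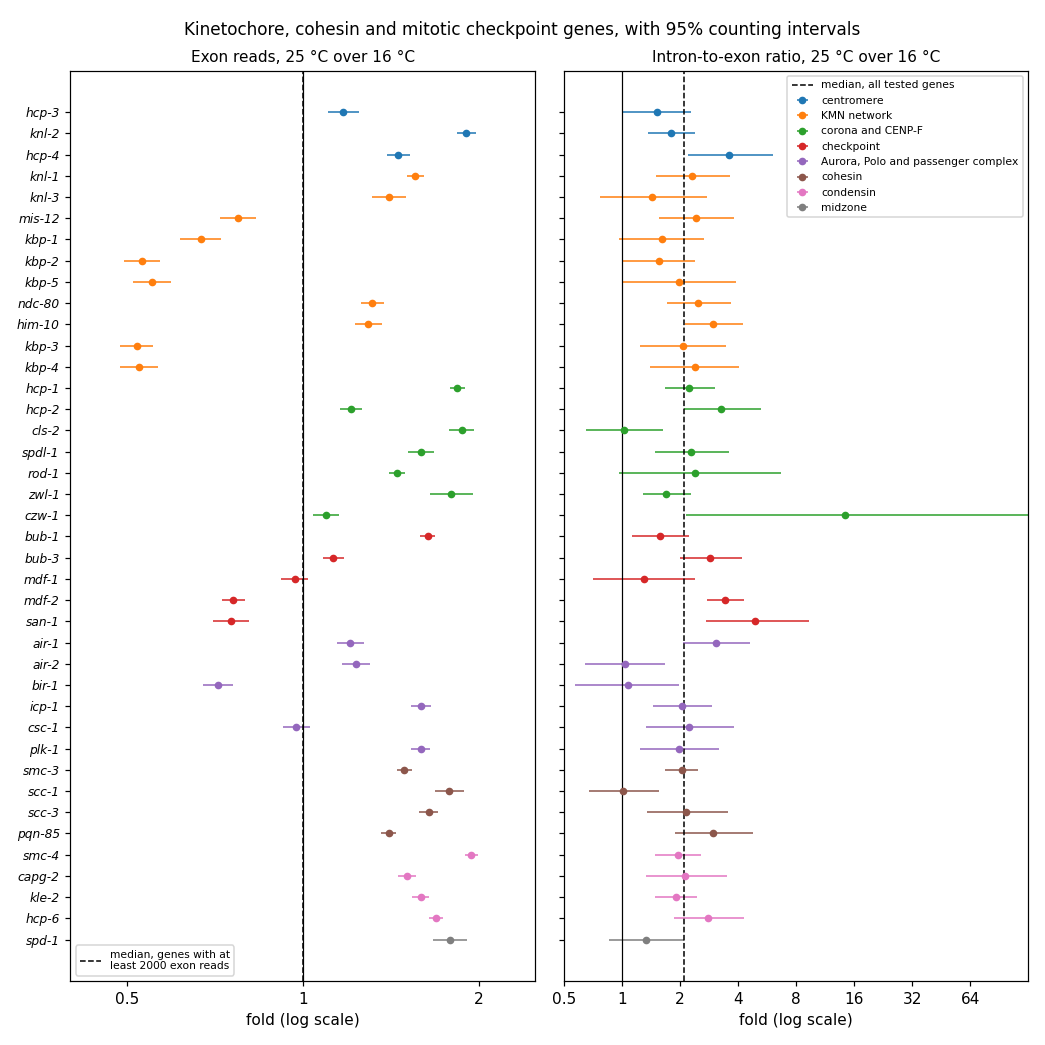
Fold of library-scaled exon reads (left) and of the intron-to-exon ratio (right), 25 °C over 16 °C, for the 40 members by role, on log scales, with exact 95% counting intervals from 1 library per temperature. In the right panel most intervals cross the dashed median of all tested genes, and the interval of czw-1 runs past the axis to 611. In the left panel 29 members lie above 1 and 11 below it.

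Exon reads differed less, and the members did not move together. Scaled by library total, 0 of 40 members were at least 2-fold higher at 25 °C and 0 at least 2-fold lower. The background was 5.81% higher and 33.6% lower over 14313 genes that reached 10 exon reads in 1 or both libraries, and 2.27% higher and 8.94% lower among well-covered genes. At 1.5-fold, 16 members were higher and 4 lower, against 10.4% and 18.4% of the well-covered genes. The members' median log2 exon change was 0.49, with 29 of 40 above 0, where that of the well-covered genes was -0.00095 with 2260 of 4530 above 0. Counting intervals lay wholly above 1 in 29 members and wholly below 1 in 9. Every member had at least 2360 combined exon reads, so these intervals are narrow and a small difference puts one off 1. The share of other genes with such intervals is not given here. Scaling instead by the median exon ratio of genes with at least 10 exon reads in each library adds 0.27 to every log2 exon change, which turned mdf-1 and csc-1 from just below 0 to above it, left 9 members below 0 and put 8 at least 2-fold higher. That scaling shifts every gene alike, and the share of other genes past 2-fold under it is not given here.

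Centromere proteins had more exon reads at 25 °C. The CENP-A histone gene hcp-3 (chromosome III, 9615306 to 9616470, WBcel235) had 2160 exon reads at 16 °C and 2092 at 25 °C, which is 1.17-fold higher after scaling (1.10 to 1.25). With 45 and 66 intron reads, its ratio of 1.51-fold (1.02 to 2.27) was not called (exact test, adjusted p = 0.103). knl-2, whose product is needed to load CENP-A, went from 4940 to 7778 exon reads, 1.91-fold higher (1.84 to 1.98). hcp-4, the CENP-C gene (I, 3862833 to 3865938), had 21 and 91 intron reads beside 3410 and 4106 exon reads, the latter 1.46-fold higher once scaled (1.39 to 1.53). Its ratio rose 3.60-fold (2.21 to 6.10; exact test, adjusted p = 1.61e-07), and the interval lay wholly above the typical gene. For knl-2 the intron reads were 73 and 206, a rise of 1.79-fold (1.36 to 2.38), within reach of the typical gene.

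The KMN network divided by the size of its subunits, a division also seen across well-covered genes. Of those with under 750 bases of exon, 94.2% had fewer exon reads at 25 °C. In the NDC-80 complex, the long coiled-coil subunits ndc-80 and him-10, the Nuf2 gene, had more exon reads at 25 °C, and the short subunits kbp-3 and kbp-4 had fewer. ndc-80 had 3717 exon reads at 16 °C and 4035 at 25 °C, 1.31-fold higher once scaled (1.26 to 1.38), and him-10 had 2562 and 2741, 1.3-fold higher (1.23 to 1.37). kbp-3 had 2977 and 1276, 1.93-fold lower (1.80 to 2.06), and kbp-4 had 2374 and 1028, 1.91-fold lower (1.77 to 2.05). In RPKM, which divides exon reads by exon length and library total, the level of kbp-4 was 304 at 16 °C and 159 at 25 °C, against 83.0 and 109 for ndc-80. The levels of the pair were closer at 25 °C than at 16 °C.

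The MIS-12 complex, which joins the other KMN parts to the chromatin, showed the same division. kbp-2 had 2500 exon reads at 16 °C and 1094 at 25 °C, 1.89-fold lower (1.76 to 2.03). kbp-1 had 1680 and 928, 1.49-fold lower (1.38 to 1.62), and mis-12 itself 2022 and 1295, 1.29-fold lower (1.20 to 1.38). The fourth subunit, knl-3, had 1657 and 1921, 1.40-fold higher (1.31 to 1.5), though it overlaps 2 annotated protein-coding genes. knl-1, the scaffold that recruits the checkpoint and the NDC-80 complex, went from 6113 to 7861, 1.56-fold higher (1.51 to 1.61). kbp-5, found with KNL-1, had 2206 and 1005, 1.81-fold lower (1.68 to 1.95).

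Splicing values of the KMN genes followed the typical gene. The ratio rose in 6 of 10, where 57.6% of well-covered genes rose, with a median log2 of 1.12. It was highest in him-10 (III, 5803260 to 5805112), where 47 and 150 intron reads gave a 2.98-fold rise (2.13 to 4.25; exact test, adjusted p = 2.63e-10), the one KMN interval wholly above the typical gene. ndc-80 rose 2.49-fold (1.71 to 3.68), mis-12 2.43-fold (1.56 to 3.82) and knl-1 2.31-fold (1.51 to 3.62). In kbp-3 and kbp-4 the intron counts were nearly equal while exon reads were lower. kbp-4 (III, 1080901 to 1081300), which has 1 annotated intron of 45 bases, had 31 intron reads at 16 °C and 32 at 25 °C, and its ratio rose 2.38-fold (1.40 to 4.06; exact test, adjusted p = 0.00432). In kbp-3 the intron reads were 36 and 32, a 2.07-fold rise of the ratio (1.24 to 3.45; exact test, adjusted p = 0.0145). The uncalled KMN genes were kbp-1 at 1.61-fold (0.971 to 2.67), kbp-2 at 1.56-fold (1.01 to 2.41), kbp-5 at 1.99-fold (1.0 to 3.90) and knl-3 at 1.44-fold (0.772 to 2.75).

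Exon length ordered these differences, both in the members and in the genome. All 6 members with under 750 bases of exon, which are kbp-1 to kbp-5 and bir-1, had fewer exon reads at 25 °C, and their median log2 change was -0.89. The 344 genes of that length with at least 2000 exon reads had a median of -0.84, and 94.2% of them lay below 0. From 750 to under 1500 bases, 7 members had a median of 0.17 and 1148 genes one of -0.30. From 1500 to under 3000 bases the medians were 0.54 for 13 members and 0.07 for 1942 genes. All 14 members with 3000 bases or more lay above 0, with a median of 0.69, beside 0.31 for 1096 genes. Across the 40 members, Spearman's rho of exon length with log2 exon change was 0.720, and across the 4530 genes it was 0.491. These points share the same 2 libraries and the same scaling. The part of exon length in any single gene's value was not tested. Measured from the median of its own length class, kbp-1 turned from -0.58 to 0.26, bir-1 from -0.48 to 0.36, csc-1 from -0.04 to 0.26 and hcp-2 from 0.27 to -0.03, while kbp-2, kbp-3, kbp-4 and kbp-5 lay between -0.10 and -0.02. In the 3 longer classes, 29 of 34 members lay above their class median.

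**Figure D2:**
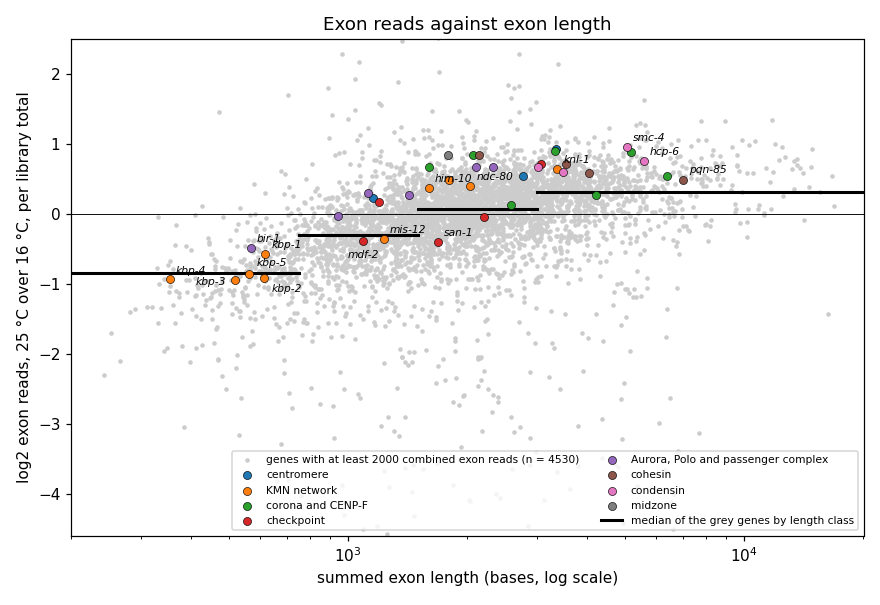
Log2 change of library-scaled exon reads, 25 °C over 16 °C, against summed exon length in bases on a log scale, for the 40 members (coloured by role) and for 4530 genes with at least 2000 combined exon reads (grey; some lie beyond the axes). Black bars are the medians of the grey genes in 4 length classes, rising from -0.84 to 0.31, and the 6 shortest members sit around the lowest bar.

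Outer kinetochore proteins that bind microtubule regulators were all higher in exon reads at 25 °C when scaled by library total, though hcp-2 lay at -0.03 on the log2 scale from the median of genes of its exon length. This group holds the CENP-F-like proteins hcp-1 and hcp-2, the CLASP protein cls-2 that they recruit, the dynein adaptor spdl-1 (Spindly), and the RZZ complex of rod-1, zwl-1 and czw-1, which carries checkpoint proteins and dynein. The paralogs hcp-1 and hcp-2 differed: hcp-1 went from 7775 to 11815 exon reads, 1.84-fold higher (1.79 to 1.89), and hcp-2 from 3996 to 3987, 1.21-fold higher (1.16 to 1.26). Their intron-to-exon ratios rose 2.24-fold (1.68 to 3.03) and 3.27-fold (2.1 to 5.24; exact test, adjusted p = 1.87e-07), the latter with its lower end just above the typical 2.09.

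cls-2 (III, 9055048 to 9058895) stood apart from the proteins that recruit it. It had 2638 exon reads at 16 °C and 4074 at 25 °C, 1.87-fold higher (1.78 to 1.97). Intron reads of 34 and 54 stood in nearly the same proportion, and the ratio was 1.03-fold (0.655 to 1.63; exact test, adjusted p = 1), wholly below the typical gene. czw-1, the ZW10 gene, had 1 intron read at 16 °C and 13 at 25 °C over 484 bases of intron. Its ratio rose 14.4-fold with an interval of 2.15 to 611 (exact test, adjusted p = 0.00345), so the size of that rise is barely known. Of its RZZ partners, zwl-1, with 77 and 194 intron reads, rose 1.70-fold (1.28 to 2.27), and rod-1, with 7 and 20, was not called at 2.39-fold (0.969 to 6.69). spdl-1 had 30 and 90 intron reads and rose 2.28-fold (1.49 to 3.59). Exon reads went from 950 to 1410 in zwl-1, 1.80-fold higher (1.65 to 1.95), and from 2660 to 3497 in spdl-1, 1.59-fold higher (1.51 to 1.68). They were 1.45-fold higher (1.41 to 1.49) in rod-1 and 1.10-fold (1.04 to 1.15) in czw-1, so the exon intervals of the RZZ subunits did not overlap.

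Checkpoint genes had the highest median ratio of the role groups with more than 1 gene, a log2 of 1.51, with 4 of 5 called. Among well-covered genes 57.6% were called higher. The group is small, and in 3 of the 5 the ratio interval included the typical gene. Both genes that rose most, san-1 and mdf-2, had lower exon reads at 25 °C. Measured from the median of its exon length class, san-1 lay at -0.48 on the log2 scale and mdf-2 at -0.10, near genes of its length. san-1, the Mad3 gene (I, 6407526 to 6409212), had 2060 exon reads at 16 °C and 1282 at 25 °C, 1.33-fold lower (1.24 to 1.42), while its intron reads went from 16 to 49. The ratio rose 4.92-fold (2.74 to 9.31; exact test, adjusted p = 7.5e-08). san-1 overlaps the annotated gene ZC328.3. mdf-2, the Mad2 gene (IV, 2636227 to 2641125), had 4660 and 2926 exon reads, 1.31-fold lower (1.26 to 1.38), and 128 and 275 intron reads. Its ratio rose 3.42-fold (2.75 to 4.28; exact test, adjusted p = 9.64e-29), and it too overlaps annotated genes, though none that codes for protein. Both intervals lay wholly above the typical gene.

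The ratio fold was lower in the other checkpoint genes that were called, though the interval of bub-3 overlapped those of mdf-2 and san-1. Only the interval of bub-1 lay below both. bub-3, a WD-repeat partner of BUB-1, had 43 and 115 intron reads, and its ratio rose 2.87-fold (2.0 to 4.19; exact test, adjusted p = 2.36e-08), with exon reads 1.13-fold higher (1.08 to 1.18). The kinase gene bub-1 went from 7935 to 10714 exon reads, 1.64-fold higher (1.59 to 1.68), with a rise of the ratio of 1.58-fold (1.13 to 2.22; exact test, adjusted p = 0.0214). mdf-1, the Mad1 gene that anchors MDF-2, had 24 and 25 intron reads and was not called at 1.3-fold (0.712 to 2.39). Its exon reads were 3143 and 2513, a scaled fold of 0.968 (0.919 to 1.02) that includes no difference.

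In the chromosomal passenger complex and the mitotic kinases, the ratio was called in some genes and not in others. AIR-2 is the Aurora B kinase that corrects faulty attachments, and ICP-1 (INCENP), BIR-1 (Survivin) and CSC-1 hold it on chromosomes. air-2 (I, 5937195 to 5938881) had 37 and 39 intron reads against 2507 and 2552 exon reads, a ratio of 1.04-fold (0.641 to 1.68; exact test, adjusted p = 1). bir-1 (V, 11644477 to 11645370) had 30 and 19 intron reads beside 2932 and 1731 exon reads, a ratio of 1.07-fold (0.569 to 1.98; exact test, adjusted p = 1). Both intervals lay wholly below the typical gene. Their partners were called higher: icp-1, with 47 and 127 intron reads, 2.05-fold (1.46 to 2.94), and csc-1, with 25 and 45, 2.24-fold (1.34 to 3.82). These intervals overlap those of air-2 and bir-1, and a difference between the genes was not tested. Exon reads of icp-1 were 1.59-fold higher (1.53 to 1.66), those of air-2 1.23-fold higher (1.17 to 1.3) and those of bir-1 1.40-fold lower (1.32 to 1.48), whereas csc-1 was at 0.975 (0.926 to 1.03).

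Aurora A and Polo showed the common rise. For air-1, which builds spindle poles, 36 and 110 intron reads gave a 3.07-fold rise of the ratio (2.08 to 4.62; exact test, adjusted p = 2.12e-08) at exon counts of 2674 and 2664, 1.21-fold higher once scaled (1.14 to 1.27). The gene overlaps 2 annotated non-coding genes. plk-1, a kinase of mitotic entry, had 27 and 70 intron reads, a 1.97-fold rise (1.25 to 3.21; exact test, adjusted p = 0.0121). Its exon reads were 5184 and 6811, 1.59-fold higher (1.53 to 1.65).

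**Figure D3:**
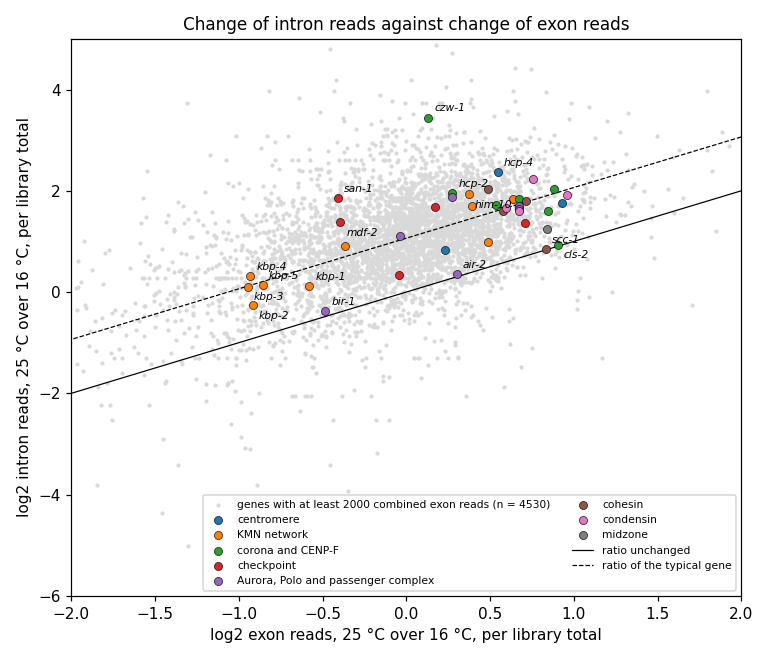
Log2 change of library-scaled intron reads against that of exon reads, 25 °C over 16 °C, for the 40 members (coloured) and 4530 genes with at least 2000 combined exon reads (grey; some lie beyond the axes). The solid line marks an equal intron-to-exon ratio in both libraries, on which air-2, bir-1, cls-2 and scc-1 nearly lie, and the dashed line the ratio of the typical gene.

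Cohesin and its loader had more exon reads at 25 °C in all 4 members found. smc-3, one of the ATPase arms of the ring (III, 11290904 to 11306247), had 7867 and 9689 exon reads, 1.49-fold higher (1.45 to 1.54). With 10388 bases of intron it also had the most intron reads, 151 and 379, and its ratio rose 2.04-fold (1.68 to 2.48; exact test, adjusted p = 2.63e-12). scc-3, which docks on the ring, rose 2.15-fold (1.35 to 3.55), and pqn-85, the loader now named scc-2, rose 2.95-fold (1.89 to 4.77) but overlaps 6 annotated genes. Their exon reads were 1.64-fold (1.58 to 1.70) and 1.40-fold higher (1.36 to 1.45). The other ATPase arm is encoded by him-1, the worm SMC1 gene, which the list of symbols missed and which was looked up after its values were seen. It had 18 intron reads at 16 °C and 98 at 25 °C, a 4.69-fold rise (2.81 to 8.25; exact test, adjusted p = 1.7e-10), with exon reads 1.41-fold higher (1.36 to 1.45).

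scc-1, the kleisin that separase cuts at anaphase (II, 4698721 to 4700994), was the exception in cohesin. From 1933 at 16 °C, its exon reads went to 2845 at 25 °C, 1.78-fold higher (1.68 to 1.89). Its intron reads were 42 and 63, so the ratio was 1.02-fold (0.676 to 1.55; exact test, adjusted p = 1), wholly below the typical gene. Read per base, its 139 bases of intron held 33.4% of the exon density at 16 °C and 34.0% at 25 °C. The value at 16 °C was the highest of the 40 members, but it rests on 42 reads over an intron length shorter than 1 read. As a share of all reads of the gene at 16 °C, intron reads were 2.13% in scc-1, below 7.50% in zwl-1 and 2.67% in mdf-2.

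All 4 condensin genes rose in the ratio, where 57.6% of well-covered genes did. Their median log2 was 1.02, beside 1.06 for all tested genes, and all 4 intervals included the typical gene. The rises ran from 1.90-fold in kle-2 (1.48 to 2.46) to 2.80-fold in hcp-6 (1.87 to 4.30; exact test, adjusted p = 6.37e-07). Both encode condensin II subunits, as does capg-2, which rose 2.13-fold (1.34 to 3.49). Intron reads of hcp-6 were 31 and 121, but the gene overlaps spd-5, and kle-2 and capg-2 each overlap a neighbour too. smc-4, the ATPase shared by condensins I and II, had 73 and 229 intron reads, a 1.95-fold rise (1.49 to 2.58). Its exon reads went from 9712 to 15591, 1.94-fold higher (1.90 to 1.99), the largest exon change upward of the 40 members. The remaining condensin genes were 1.51-fold (1.45 to 1.56), 1.59-fold (1.54 to 1.65) and 1.69-fold higher (1.65 to 1.74) in capg-2, kle-2 and hcp-6. spd-1, the PRC1 protein that bundles midzone microtubules, had 1512 and 2232 exon reads, 1.79-fold higher (1.67 to 1.91), and its ratio of 1.33-fold (0.860 to 2.11) was not called.

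Set against the typical gene, 6 members had a ratio interval wholly above its 2.09-fold and 4 wholly below, and 30 included it. The 6 were hcp-4, him-10, hcp-2, czw-1, mdf-2 and san-1, and the 4 were cls-2, air-2, bir-1 and scc-1. By the same rule 7.49% of all tested genes lay above and 11.4% below, and 14.4% and 17.8% of the well-covered genes, so 6 and 4 of 40 are near the background. Library-scaled intron reads alone were higher at 25 °C in 38 of 40 members and had a median log2 of 1.62, beside 1.03 in the well-covered genes. The intervals of this fold lay wholly above 1 in 32 members and wholly below 1 in 0. Shares of other genes are not given for these counts, so they are not read as particular to the members. The intron share of the whole libraries was also higher at 25 °C, at 2.47% against 1.43% at 16 °C. bir-1 and kbp-2 were the pair with fewer scaled intron reads, at 0.767 (0.408 to 1.41) and 0.829 (0.537 to 1.27). Of the 28 genes whose ratio rose, 22 also had more exon reads at 25 °C and 6 fewer.

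Intron reads per base of intron, as a percentage of exon reads per base of exon, put the genes on one scale of unspliced signal. The median over members was 5.65% at 16 °C and 10.9% at 25 °C, where well-covered genes had 1.78% and 3.89%. The lengths cancel between temperatures, so the density fold of a gene is its ratio fold. A higher density at 25 °C in all 40 members thus restates the count of ratios given above. The fold was as little as 1.02 in scc-1, 1.03 in cls-2 and 1.04 in air-2. him-10 went from 11.4% to 34.0%, air-1 from 10.3% to 31.5% and hcp-2 from 8.51% to 27.8%. At the low end, pqn-85 went from 0.310% to 0.915% and bub-3 from 0.478% to 1.37%. Short introns go with high values here. The 14 members with under 250 bases of intron had medians of 10.3% and 21.6%, and 883 genes of that class with at least 2000 exon reads had 3.08% and 7.39%. In the class of 1000 bases or more, 7 members had 1.0% and 3.43% and 2224 genes 1.25% and 2.55%. A read of 150 bases is longer than many of these introns, and how reads that lie partly in an exon were counted is not given in the sources used here.

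**Figure D4:**
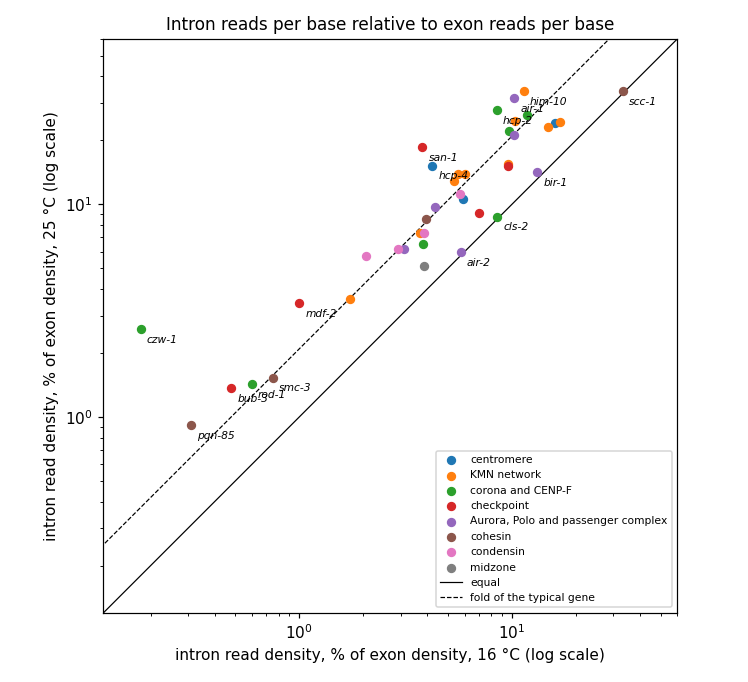
Intron read density as a percentage of exon read density at 25 °C against 16 °C, on log scales, for the 40 members, 1 library per temperature. The solid line marks equal values and the dashed line the fold of the typical gene; scc-1 lies at 33.4% and 34.0%, on the solid line, and czw-1 rests on 1 intron read at 16 °C.

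Other genes of chromosome segregation and the cell cycle gave like values. The background for the counts below is a rise in 28.1% of all tested genes and 57.6% of well-covered genes. The median log2 ratio was 1.06 in each. Of 16 anaphase-promoting complex and anaphase genes, the ratio rose in 11 and fell in 0, with a median log2 of 1.22. fzy-1, the Cdc20 activator that the checkpoint restrains, rose 4.58-fold (3.18 to 6.75), and apc-17 5.40-fold (1.61 to 28.2). Of 14 further SMC complex genes 8 rose, with a median of 0.87, wapl-1, a cohesin release factor, by 3.16-fold (2.08 to 4.95) and dpy-26, a condensin kleisin of dosage compensation, by 3.11-fold (1.93 to 5.22). Of 24 other spindle and attachment genes 13 rose, with a median of 0.97. lis-1, a dynein regulator, rose 8.18-fold (3.75 to 21.2), and klp-7 had 1 and 52 intron reads (34.1-fold, 5.83 to 1372). DNA replication genes rose in 16 of 19 (median 1.23), cyclins and cell-cycle kinases in 12 of 17 (median 1.04) and centrosome genes in 6 of 10 (median 0.93), with 0 falls in each list. The called rises described from these lists each rest on 20 or more intron reads over both libraries. For DNA replication they were pcn-1 at 4.61-fold (2.90 to 7.62) and mcm-6 at 4.56-fold (1.70 to 15.4). For cyclins and kinases they were cya-1 at 3.0-fold (1.93 to 4.77) and cdk-1 at 2.94-fold (2.0 to 4.39). For the centrosome they were sas-5 at 4.24-fold (2.34 to 8.11) and sas-4 at 2.43-fold (1.47 to 4.18). The highest ratio of the cyclin and kinase list was larger, a log2 of 4.07 in a gene not named here. Reads of apc-17, fzy-1, dpy-26, klp-7, cya-1 and mcm-6 are uncertain, since these genes overlap another.

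Exon reads of those lists had medians between 0.09 for the centrosome and 0.53 for the other SMC genes, beside 0.49 for the members. Past 2-fold higher were the G1 cyclins cyd-1, at 2.48-fold (2.35 to 2.61), and cye-1, at 2.27-fold (2.1 to 2.45), and smc-6, at 2.1-fold (2.01 to 2.19). Past 2-fold lower were apc-11, at 2.36-fold (2.19 to 2.55), psf-2, at 2.1-fold (1.86 to 2.38), and lab-1, at 3.94-fold (3.20 to 4.90). apc-11 and psf-2 are short, with 785 and 824 bases of exon, and lab-1 has 2661.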

How the data were processed

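RNA of 1 library at 16 °C and 1 at 25 °C was compared. Exon and intron read counts per gene were deposited by the authors without normalization, and per the submitters' processing notes Trimmomatic, TopHat2 and HTSeq were used. Not given in the sources used here are their versions, the genome build, the annotation and the strand setting. Columns marked Con and Exp were matched to the temperatures by the same marks in the labels. The fold (a ratio), p-value and adjusted p per gene come from the authors' deposited table, and only its count of adjusted p under 0.01 was used.

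With scipy 1.17.1, the 4 counts of each gene were tested by a two-sided Fisher exact test, Benjamini-Hochberg adjusted over 14972 genes at 0.05. Ratio intervals are conditional exact odds ratios. Exon and intron folds were scaled by library total with exact binomial intervals, and log2 values and medians used 0.5 added reads. All intervals are at 95% and cover counting error only, since there is 1 library per temperature. Reads copied by PCR are not independent molecules, so the intervals may be too narrow even for counting error. The test was checked on simulated counts, which cannot show how much libraries of the same temperature vary. A gene that was not called may still have changed. Positions and overlaps came from Ensembl 115 (WBcel235) by gene identifier and may differ from the authors' annotation. Reads of a gene that overlaps another are uncertain, and 15 of 40 members overlap one.

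The members and lists were chosen with earlier results of these data known. Described in full were, by role, the members with the largest and smallest ratio among those with at least 20 intron reads, those past 2-fold in exon reads, those whose ratio fell and those off the typical gene, and up to 2 called genes per pathway list. The called genes taken from pathway lists each had 20 or more intron reads over both libraries. Lists were matched by the table's or the current symbol, and cdc-45L, asp-1 and tni-4 were not matched.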

Additional observations from a re-analysis of the deposited data

How the results depend on the processing

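The median log2 ratio of members stayed between 1.03 and 1.06 under every filter, pseudocount and overlap setting run, and 0 members fell under any of them. The 28 rises numbered 14 with Bonferroni at 0.01 and 17 when the members that overlap another gene were left out, which keeps 25 members. The 28 were 27 to 31 under the other settings. With no filter on low counts 10 members, not 6, lay above the typical gene, whose fold is then lower. Scaling by the median exon ratio gave 8 members at least 2-fold higher in exon reads, not 0, a median exon change of 0.76, not 0.49, and a median intron change of 1.89, not 1.62. At 1.5-fold 16 were higher and 4 lower, where 10.4% and 18.4% of the well-covered genes were. Shares of other genes under the remaining settings are not given here, so their counts are not read as particular to the members. Against genes of like exon length, a comparison added after seeing the data, kbp-1 reversed to 0.26 and bir-1 to 0.36 on the log2 scale, and csc-1 (to 0.26) and hcp-2 (to -0.03) also changed sign, csc-1 from an interval that included no difference and hcp-2 to one that does. The comparison with genes of at least 2000 exon reads was also added after seeing the data. The causes of these differences were not tested beyond what each setting itself removes. No paired analysis was possible because there is 1 library per temperature. Low intron counts limit the precision of most single ratios.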
